A study of Mus musculus with 2 samples.

Results

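The cells described here are liver neutrophils that were selected on their *Cxcr2* counts from 2 single-cell RNA sequencing (scRNA-seq) libraries of mouse liver nonparenchymal cells (NPCs), the cells of the liver other than hepatocytes. One library came from control mice on a standard low-fat diet and one from mice fed a methionine-choline deficient (MCD) diet, labelled NASH, for nonalcoholic steatohepatitis. The mice were male C57BL/6, 8 weeks old, fed for 6 weeks, and 3 livers per diet were pooled before capture, so each diet was 1 library with no replicate. No test between the diets was therefore possible. Every difference below is a difference between 2 libraries, and every interval is a 95% interval for counting error only, in which each UMI (a unique molecular identifier, 1 captured transcript) counts as independent.

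A cell was taken as a Cxcr2 neutrophil when it held at least 500 UMIs and 200 genes, at least 2 UMIs of *Cxcr2*, at most 1 UMI of *Acod1*, no UMI of *Cd79a* or *Cd3e*, and at most 3 UMIs of *C1qa*, *C1qb* and *C1qc* together. This chose 412 of the 7919 cells that passed the depth limits, 350 of 4209 in the control library and 62 of 3710 in the NASH library. The median depth was 1455 UMIs and 685.5 genes per cell in control neutrophils and 1257.5 UMIs and 619.5 genes in NASH neutrophils. The libraries shared 21 cell labels, which name cells within a library only. Summed over its cells, the control group gave 536290 UMIs and the NASH group 84331. A gene with 3 UMIs therefore stood at 5.59 CPM (UMIs scaled to the same total in each group) in control and at 35.6 CPM in NASH neutrophils, and low genes were less certain in NASH.

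Neutrophils are short-lived granulocytes that mature in the bone marrow, where they first make the enzymes of azurophil granules, then the proteins of specific granules, and last gelatinase and secretory vesicles. They leave the marrow when signalling through CXCR2, a receptor for CXC chemokines, outweighs retention through CXCR4. In the liver they reach the sinusoids early in injury, where they release interleukin 1, chemokines and proteases.

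The selection on *Cxcr2* also brought in the other markers of the cell type. *Csf3r*, the receptor for granulocyte colony-stimulating factor, stood at 7276 CPM in control and 5822 CPM in NASH neutrophils, with a UMI in 340 of 350 and 60 of 62 cells. *Mmp9*, the gelatinase of the late granules, stood at 3332 and 4127 CPM, in 325 and 55 cells. *Nlrp12*, a regulator of inflammatory signalling, was sparse, with 177 and 18 UMIs in 133 and 11 cells. In B cells of the same libraries (683 control and 198 NASH cells, median depths 1185 and 1163 UMIs), which should lack these transcripts, *Csf3r* stood at 6.85 and 13.3 CPM and *Mmp9* at 5.61 and 13.3 CPM, far below the neutrophils. The markers matched the name of the cell type in most of the selected cells. The neutrophil genes *S100a8*, *S100a9* and *Retnlg* are not analysed here, since the gene columns used run alphabetically up to *Rad54l2*. UMI totals, depth limits and CPM are likewise taken over these columns only.

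**Figure D1:**
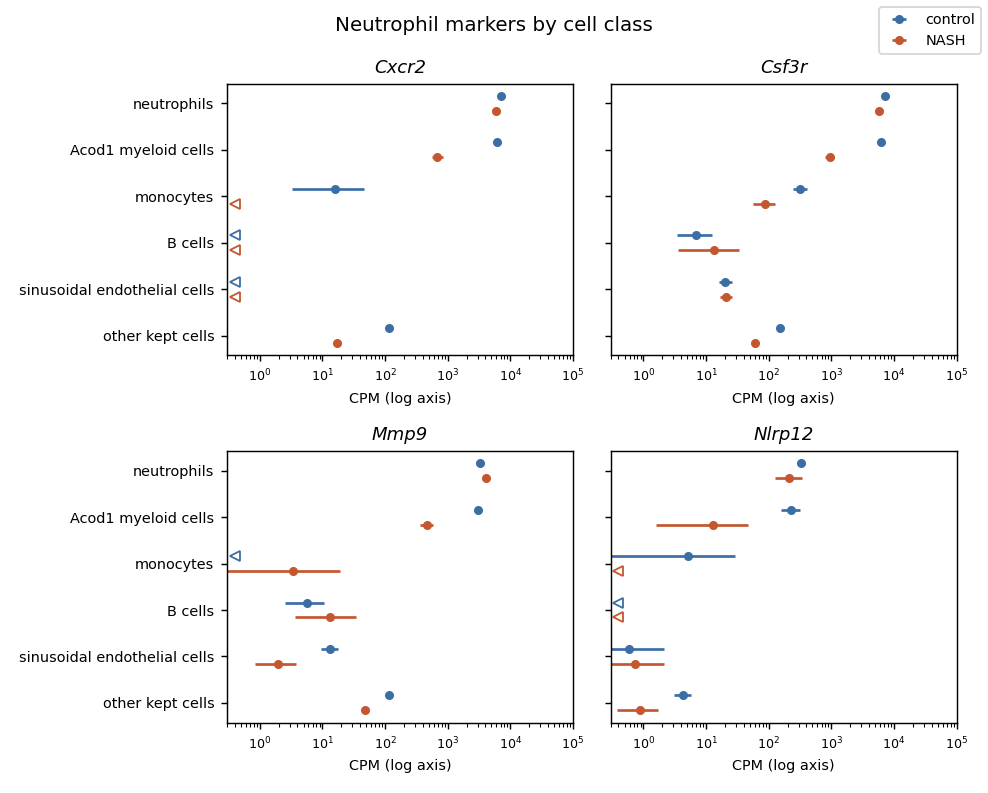
Level of 4 neutrophil markers in CPM on a log axis, by cell class, in the control and the NASH library; points are summed UMIs per class, bars are 95% Poisson intervals, and open triangles mark classes with no UMI. *Csf3r*, *Mmp9* and *Nlrp12* are highest in the neutrophils of both libraries, at 7276 and 5822 CPM for *Csf3r*, whereas *Cxcr2* defined the neutrophils and was limited in monocytes, B cells and endothelial cells.

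Near the limit of the rule, 7 control and 4 NASH neutrophils held exactly 2 UMIs of *Cxcr2*, and *Csf3r* was detected in 3 and 2 of them. Just outside, 35 control and 16 NASH cells met every other limit with 1 UMI of *Cxcr2*, and *Csf3r* was detected in 5 and 2 of those. The median neutrophil held 10 UMIs of *Cxcr2* in control and 7.5 in NASH, with a maximum of 30 and 17. The limit on *Acod1*, which encodes the enzyme that makes itaconate in activated myeloid cells, removed 82 of 432 control cells (19.0%, 95% exact binomial interval 15.4 to 23%) and 15 of 77 NASH cells (19.5%, 11.3 to 30.1%) that met the rest of the rule. Those intervals overlapped almost entirely. In the control library 82 of all 88 *Acod1* cells were such *Cxcr2* cells, against 15 of 54 in NASH.

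A few of the selected cells also held many transcripts of another cell class. Of the control neutrophils 11 carried at least 10 UMIs of 1 list of markers of another class, as did 3 NASH neutrophils. In 4 of the control cells the list was endothelial (43 to 184 UMIs), in 2 it was monocytic (18 and 81 UMIs), and in 5 it was the list of basophils, mast cells and eosinophils (12 to 20 UMIs). None of those last 5 held a UMI of *Csf3r*, although they held 2 to 8 UMIs of *Cxcr2*. The NASH cells were 2 with endothelial markers (20 and 25 UMIs) and 1 with 10 UMIs of monocyte markers. Doublets were not called. Lower levels of endothelial transcripts were widespread, and 238 of 350 control and 41 of 62 NASH neutrophils held at least 2 UMIs of any marker of another class. Summed over the neutrophils, the 10 endothelial markers gave 1154 and 1577 CPM, the monocyte markers 643 and 581 CPM, the plasma cell markers 438 and 23.7 CPM, and the Kupffer cell markers 248 and 296 CPM. The basophil, mast cell and eosinophil markers gave 105 and 0 UMIs. T cell markers gave 21 and 3 UMIs, plasmacytoid dendritic cell markers 31 and 5 UMIs, hepatocyte markers gave 21 and 2 UMIs, listed B cell markers 14 and 0 UMIs, and natural killer cell markers 6 and 0 UMIs.

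Other genes were also far above the remaining cells in both libraries. Among genes with a UMI in at least 25% of the neutrophils of each library, the 15 with the highest level against the other cells, taking the lower of both libraries, were receptors (*Cxcr2*, *Csf3r*, *Ccr1*, *Il1r2*, *Hcar2*), cytokines (*Il1b*, *Il1f9*, *Osm*), granule genes (*Mmp8*, *Lcn2*) and *Pi16*, *Dhrs9*, *Chil1*, *Crispld2* and *Gm20406*. *Il1b*, which encodes interleukin 1 beta, was 39.7 times the level of the other cells in control and 53.5 times in NASH. *Il1r2*, the decoy receptor for interleukin 1, was 44.9 and 62.9 times the level of the other cells. *Ccr1*, a receptor for CCL3 and related chemokines, was 45.1 and 59.9 times as high. These genes describe the cells that the rule chose and were not tested.

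Neutrophils made up a smaller share of the NASH library. They were 8.32% of control cells (95% exact binomial interval 7.50 to 9.19%) and 1.67% of NASH cells (1.28 to 2.14%), a log2 ratio of -2.31 (-2.70 to -1.93). The control share was 4.98 times the NASH share. The ratio of the shares stayed between -2.06 and -2.46 under every other definition of the cells that was tried. A share of captured cells depends on how many cells of each class left the tissue and were captured, and with 1 pool per diet the spread between mice is unknown.

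To compare expression, UMIs were summed over the neutrophils of each library, scaled to CPM, and expressed as the log2 ratio of NASH over control for the 1826 genes with at least 50 UMIs in both groups together. The median log2 ratio was 0.01. By size alone, 232 genes (12.7%) were at least 1.5 times higher and 243 (13.3%) at least 1.5 times lower in NASH neutrophils. For 31 genes (1.7%) the whole counting interval lay above 1.5 times, and for 25 genes (1.37%) it lay below. These shares are the background against which each gene group is given below.

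**Figure D2:**
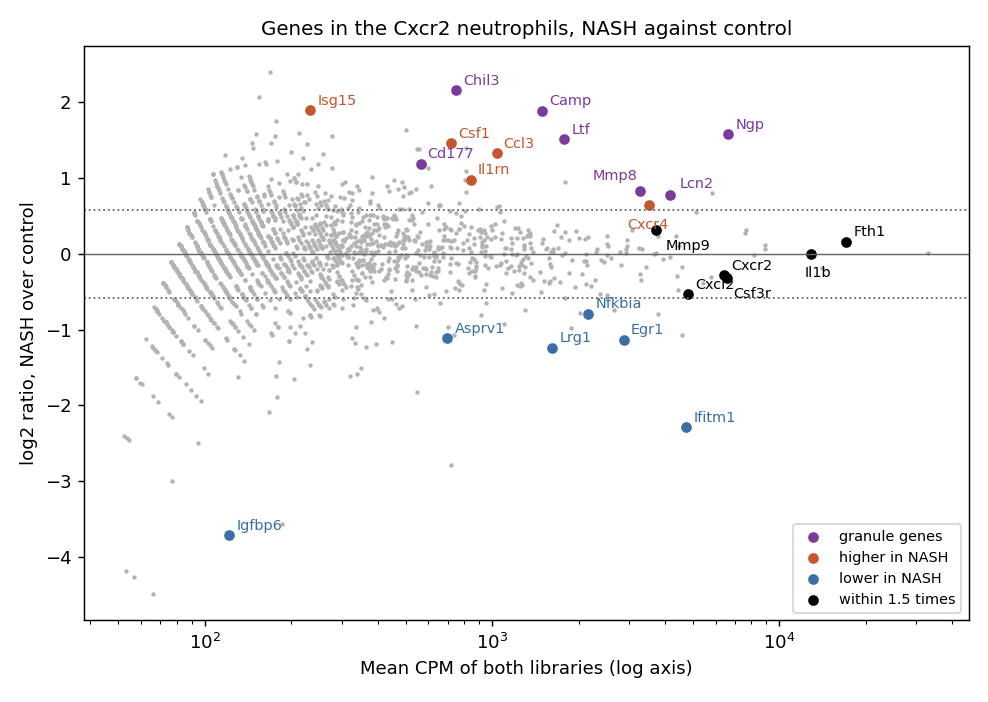
Log2 ratio of NASH over control neutrophils for 1826 genes against the mean CPM of both libraries on a log axis; dotted lines mark 1.5 times, and coloured points are named genes. *Ngp*, *Camp*, *Ltf* and *Chil3* lie above the upper line at 1.51 to 2.16 and *Ifitm1* lies at -2.29, while *Il1b* lies at 0.00.

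The specific granule genes had the highest median log2 ratio of the 20 gene lists. Of 16 counted members, 9 were at least 1.5 times higher in NASH and none was 1.5 times lower, with a median log2 ratio of 0.79, and the counting interval lay above 1.5 times for all 9. *Ngp*, neutrophilic granule protein, went from 3323 to 9937 CPM (log2 ratio 1.58, 1.46 to 1.70). *Camp*, the cathelicidin antimicrobial peptide, went from 636 to 2360 CPM (1.89, 1.63 to 2.15). *Ltf*, the iron-binding lactoferrin, went from 929 to 2644 CPM (1.51, 1.28 to 1.74), and *Chil3*, a chitinase-like lectin, from 274 to 1221 CPM (2.16, 1.78 to 2.53). *Lcn2*, which encodes the siderophore-binding lipocalin, was higher by 0.78 on the log2 scale (0.62 to 0.93). The collagenase gene *Mmp8* was higher by 0.83 (0.65 to 1.00).

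For several of these genes nearly all UMIs came from very few cells. The UMIs of 7 granule genes (*Ltf*, *Camp*, *Lcn2*, *Ngp*, *Chil3*, *Cd177* and *Mmp8*) were added up in each neutrophil. In the control library 7 neutrophils held 283 to 1079 such UMIs and the next highest held 48. In the NASH library 4 neutrophils held 179 to 1006 and the next highest held 36. A limit of 100 UMIs, placed in that gap after the counts were seen, defines them here as granule-rich cells. The 7 control cells carried 64.4% of the granule UMIs of their library and the 4 NASH cells 85.5%. Outside these 11 cells *Camp* had no UMI, *Ltf* 2, *Chil3* 6 and *Ngp* 30 UMIs in the remaining 401 neutrophils of both libraries. *Lcn2* and *Mmp8* were spread more widely, with 1127 and 1176 UMIs in those 401 cells against 967 and 439 in the 11.

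**Figure D3:**
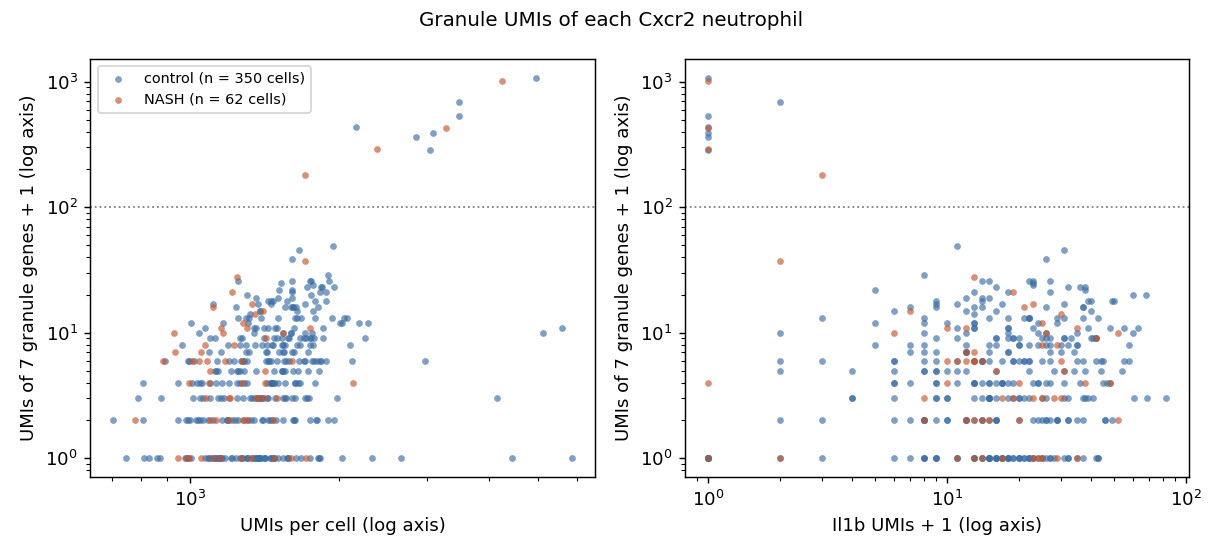
UMIs of 7 granule genes in each neutrophil, plus 1, against the UMIs of the cell (left) and against its *Il1b* UMIs plus 1 (right), all on log axes; each point is 1 cell and the dotted line marks 100 UMIs. The 7 control and 4 NASH cells above the line are separated by a gap from the rest, whose highest values are 48 and 36 UMIs, and they hold at most 2 UMIs of *Il1b*.

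Granule-rich cells were 2.0% of control neutrophils (7 of 350, 0.81 to 4.08%) and 6.45% of NASH neutrophils (4 of 62, 1.79 to 15.7%), and these counting intervals overlapped. Per cell, the granule load overlapped between the libraries. Granule UMIs took 9.30 to 21.8% of the UMIs in the columns used of a control granule-rich cell and 10.5 to 23.7% of a NASH one. The cells were deep, with 2163 to 4955 UMIs in control and 1704 to 4239 in NASH, against medians of 1442 and 1224 in the other neutrophils. They held 2 to 17 UMIs of *Cxcr2* and at most 9 UMIs of markers of other classes. Among cells outside the rule, 1 in each library held at least 100 granule UMIs, and each of these had no more than 1 UMI of *Cxcr2*.

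In other genes, too, the granule-rich cells were unlike the remaining neutrophils. Pooled over both libraries, their level of *Ngp* was 74799 CPM against 51.2 CPM in the others. They had 12678 against 2007 CPM of *Mmp8*, 7047 against 3227 CPM of *Mmp9*, 33212 against 2968 CPM of *Lyz2* (lysozyme) and 6960 against 167 CPM of *Cybb* (the catalytic subunit of the NADPH oxidase). *Ly6g*, the surface antigen used to sort mouse neutrophils, stood at 2744 against 251 CPM. *Cebpe*, a transcription factor needed for specific granules, had 7 UMIs in 4 of the 11 cells and none in the other 401. In the other direction, the 11 cells held 3 UMIs of *Il1b* in all (86.6 against 13702 CPM), 2 of *Ifitm1*, 6 of *Cxcl2*, 17 of *Csf3r* (491 against 7468 CPM) and none of *Ccl3* or *Csf1*. *Cxcr2* was at 2426 CPM in them and 7166 CPM in the rest. Of the 19 azurophil and precursor genes, 14 had no UMI in these 11 cells, among them *Mpo*, *Elane*, *Fcnb*, *Mki67* and *Cdk1*. The other 5 were *Cebpe*, *Hmgn2* (41 UMIs, 1184 against 224 CPM), *Plac8* (13 UMIs, 375 against 201 CPM), *Igfbp4* (3 UMIs) and *Myb* (1 UMI). Because the cells were chosen on their granule UMIs, these values describe them and were not tested.

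The ratios were also taken without the granule-rich cells. Because these cells were chosen on the same UMIs, a lower granule level without them is in part fixed by that choice. The median log2 ratio of the specific granule genes moved from 0.79 to -0.20, over 11 genes that still had 50 UMIs. *Lcn2* moved from 0.78 to -0.30 (-0.59 to -0.03), *Lyz2* from 0.81 to -0.20 (-0.42 to 0.02) and *Ly6g* from 0.88 to -0.08 (-0.94 to 0.62). Of the control *Lyz2* UMIs that remained, 240 came from 1 cell with monocyte markers, which was kept here. The sign of the *Lyz2* ratio without the granule-rich cells is therefore not read. *Cd177*, a surface receptor of mature granulocytes, moved from 1.19 to 0.29 and *Cybb* from 1.4 to 0.60 (-0.28 to 1.33). *Mmp8* kept a higher level in NASH, at 0.46 (0.23 to 0.69), and was detected in 216 of 350 control and 48 of 62 NASH neutrophils. The median cell held 1 UMI of *Mmp8* in control and 2 in NASH. Over all 7 genes the median of the other neutrophils was 4 granule UMIs in control and 3 in NASH. Leaving out cells with 2 or more UMIs of other classes also turned the specific granule median, to -0.56, but that removed 10 of the 11 granule-rich cells, including all 4 of the NASH library.

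**Figure D4:**
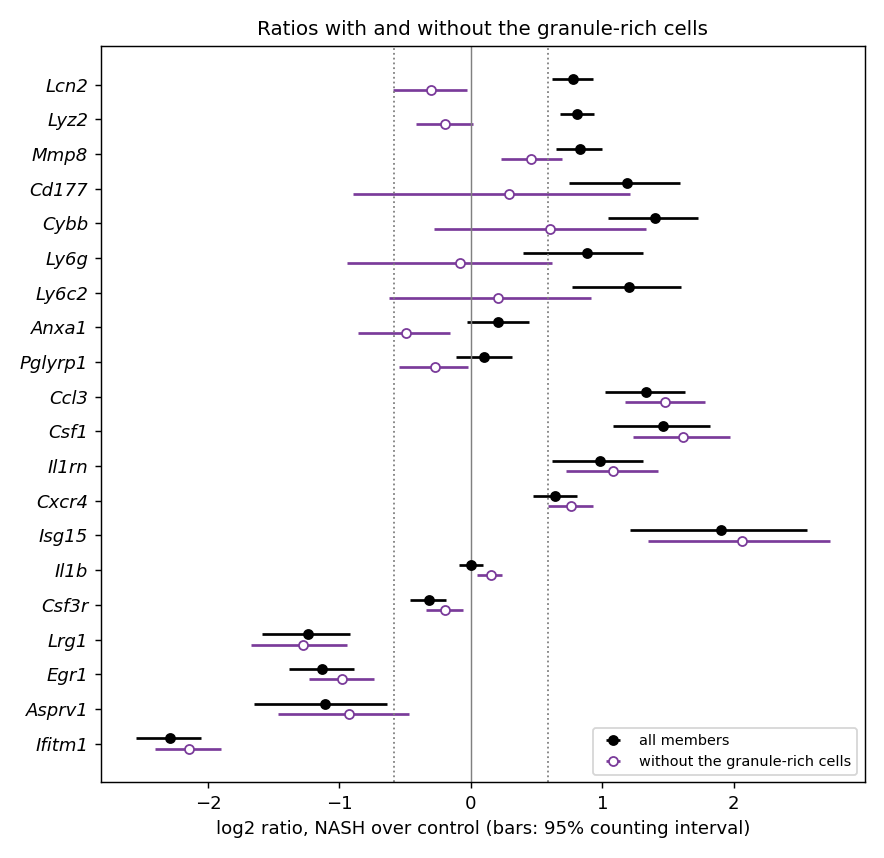
Log2 ratio of NASH over control for 20 genes in all neutrophils (filled) and without the 11 granule-rich cells (open), with 95% counting intervals; dotted lines mark 1.5 times. *Lcn2*, *Lyz2* and *Ly6g* move from above 0.70 to below 0, whereas *Ifitm1*, *Lrg1*, *Egr1*, *Ccl3*, *Csf1* and *Isg15* stay on the same side of the dotted lines.

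The upstream sequences of 3 of the genes that define the granule-rich cells are shown because these genes had nearly all of their UMIs in the same 11 cells. Each is 150 bases of the gene's strand, written 5′ to 3′ and ending before the first base of the gene at the coordinates given below (RefSeq sequence, build GRCm38.p6). Capitals mark matches to TTNCNNAA, the core pattern bound by C/EBP factors, searched on both strands, where adjoining or overlapping matches run together.
Ngp, chr9:110419597-110419746, plus strand: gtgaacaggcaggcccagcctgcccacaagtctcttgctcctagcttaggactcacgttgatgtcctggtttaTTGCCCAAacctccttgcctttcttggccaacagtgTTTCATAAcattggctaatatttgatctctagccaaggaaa
Ltf, chr9:111019121-111019270, plus strand: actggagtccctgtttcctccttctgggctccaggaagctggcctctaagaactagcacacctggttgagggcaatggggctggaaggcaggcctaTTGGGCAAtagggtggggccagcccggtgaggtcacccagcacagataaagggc
Chil3, chr3:106167565-106167714, minus strand: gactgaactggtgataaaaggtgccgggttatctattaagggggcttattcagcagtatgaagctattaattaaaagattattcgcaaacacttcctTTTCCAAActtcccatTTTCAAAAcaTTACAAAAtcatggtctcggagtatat
*Ngp* had 2 matches, *Ltf* 1 and *Chil3* 3. Of the 7 granule genes, 5 had a window that could be used and all 5 held a match, the others being *Cd177* and *Mmp8* with 1 each, while *Camp* and *Lcn2* were not searched. Windows of this length upstream of RefSeq starts held at least 1 match in 22.7% of 32851 cases, so the pattern is common. The windows of *Ngp* and *Ltf* lay 61 and 21 bases from the RefSeq start, and those of *Chil3*, *Cd177* and *Mmp8* at it. *Ngp* (chr9:110419747-110423012) and *Ltf* (chr9:111019271-111042767) lie on chromosome 9, as does *Camp* (chr9:109847379-109849617), and *Chil3* lies on chromosome 3 (chr3:106147554-106167564). A match is a description of the letters and not evidence of binding.

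Unlike *Ngp*, *Camp* and *Ltf*, the lower gene *Ifitm1*, an interferon-induced transmembrane protein, was detected in most cells of both libraries at unequal levels. It went from 7861 CPM (7626 to 8102) in control to 1601 CPM (1342 to 1895) in NASH, a log2 ratio of -2.29 (-2.55 to -2.05). It was detected in 322 of 350 control and 47 of 62 NASH neutrophils, the median cell held 10 and 2 UMIs, and the highest cell 54 and 13. The control level was 4.89 times the NASH level. B cells stood at 65.4 and 33.2 CPM, and without the granule-rich cells the log2 ratio was -2.14. The related *Ifitm2* went from 2553 to 1482 CPM (-0.78), while *Ifitm3* was at 1328 and 1293 CPM (-0.03). Members of this family are alike in sequence, so their split of the reads is uncertain. In the *Acod1* cells *Ifitm1* stood at 8232 CPM in control and 604 CPM in NASH. Those classes were unlike, since 82 of 88 control and 15 of 54 NASH cells in them held at least 2 UMIs of *Cxcr2*. With every neutrophil thinned to 500 UMIs, *Ifitm1* was detected in 83.1% of control (78.8 to 86.9%) and 58.1% of NASH cells (44.8 to 70.5%), against 92.0 and 75.8% before thinning.

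*Lrg1*, a secreted leucine-rich glycoprotein stored in neutrophil granules, went from 2275 to 961 CPM (log2 ratio -1.24, -1.59 to -0.92), and was detected in 309 of 350 control and 31 of 62 NASH cells. *Asprv1*, a retroviral-like protease, went from 958 to 439 CPM (-1.11, -1.65 to -0.64), with a UMI in 38.9% of control and 24.2% of NASH cells. *Igfbp6*, an insulin-like growth factor binding protein, had 124 UMIs in 83 control cells and 1 UMI in 1 NASH cell. It was lower in other cells of the NASH library too, with 25 and 0 UMIs in *Acod1* cells and 20.7 and 0.49 CPM in sinusoidal endothelial cells. In *Acod1* cells the log2 ratio was -4.63 for *Lrg1* and -3.46 for *Asprv1*. Of those cells, 82 of 88 in control and 15 of 54 in NASH held at least 2 UMIs of *Cxcr2*. The *Acod1* values, that of *Igfbp6* included, therefore compare unlike mixtures of cells. Of the 22 other neutrophil markers, 3 were at least 1.5 times higher and 3 lower, with a median of 0.12. The lower ones were *Lrg1*, *Asprv1* and *Grina* (-0.74), and the higher ones were *Cd177*, *Ly6g* and *Mmp8*.

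Receptors were counted in 2 lists. Of 23 counted chemoattractant and pattern receptors, 2 were at least 1.5 times higher and 1 lower, with a median of 0.00. *Cxcr4*, the retention receptor, went from 2750 to 4293 CPM (0.64, 0.47 to 0.81), with a UMI in 303 of 350 and 58 of 62 cells, and the single lower receptor was *Nlrp12* (-0.59, -1.42 to 0.07). *Cxcr2*, on which the cells were chosen, went from 7073 to 5810 CPM. B cells, which carry *Cxcr4* themselves, went from 809 to 2181 CPM. *Ccr1* (-0.17), *Hcar2*, the receptor for hydroxybutyrate and niacin (0.18), and the lectin *Clec4d* (0.00) were within 1.5 times, and *Cd14*, the co-receptor for endotoxin, had a log2 ratio of 0.66 with an interval from -0.13 to 1.34. Of 21 cytokine and Fc receptors, 2 were higher and 5 lower, with a median of -0.29. The lower ones were *Ifnar2*, a chain of the type I interferon receptor (81 to 3 UMIs, -1.87), *Csf2rb2* (-1.25), *Il13ra1* (-1.18), the interleukin 17 receptor *Il17ra* (1165 to 735 CPM, -0.65) and *Ifngr1* (-0.62), a chain of the interferon gamma receptor. *Csf3r* was within 1.5 times (-0.32). The higher ones were the Fc receptor *Fcgr4* (0.81) and *Il10rb* (0.81).

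Of the cytokines and chemokines, 14 had enough UMIs, and 5 of these were at least 1.5 times higher and 2 lower, with a median of 0.12. *Il1b* did not differ in size, at 12943 CPM (12639.9 to 13251) in control and 12937 CPM (12181 to 13728) in NASH neutrophils, in 338 of 350 and 57 of 62 cells. *Csf1*, the growth factor of macrophages, went from 386 to 1055 CPM (log2 ratio 1.46, 1.08 to 1.82), and was detected in 77 of 350 control and 25 of 62 NASH cells. *Ccl3*, an inflammatory chemokine, went from 591 to 1482 CPM (1.33, 1.02 to 1.63), in 72 and 24 cells. *Il1rn*, the interleukin 1 receptor antagonist, went from 569 to 1115 CPM (0.98, 0.62 to 1.31), in 162 and 36 cells, and *Ccl4* from 334 to 640 CPM (0.95, 0.47 to 1.39), in 41 and 11 cells. Neither rise was particular to neutrophils. The log2 ratio of *Il1rn* was 2.84 in sinusoidal endothelial cells, 2.67 in monocytes, 2.21 in *Acod1* cells and -0.03 in B cells. That of *Ccl4* was 2.04, 1.92, 2.95 and 3.89 in the same classes. The fifth higher gene was *Nampt* (0.59), and the lower ones were *Ccl9* (-0.88) and *Cxcl9*, with 74 of its 76 control UMIs in 1 cell. *Cxcl2*, a ligand of CXCR2, was within 1.5 times at 5676 and 3925 CPM (-0.53), and *Osm*, oncostatin M, at 1384 and 961 CPM (-0.52).

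*Ccl3* and *Csf1* were found in the same cell in some neutrophils. In the NASH library 12 of the 24 cells with *Ccl3* also held *Csf1*, against 34.2% of the cells without *Ccl3*. In the control library 17 of the 72 with *Ccl3* held *Csf1*, 23.6%, against 21.6% of those without. At 500 UMIs per cell, *Ccl3* was detected in 12.6% of control (9.28 to 16.5%) and 25.8% of NASH neutrophils (15.5 to 38.5%), and *Csf1* in 14% (10.5 to 18.1%) and 27.4% (16.9 to 40.2%). Before thinning the shares were 20.6 and 38.7% for *Ccl3* and 22.0 and 40.3% for *Csf1*. In B cells *Ccl3* stood at 5.61 CPM in control and 53.1 CPM in NASH, and *Csf1* at 16.8 and 139 CPM, so both backgrounds were higher in the NASH library but well below the neutrophils. Without the cells that carried markers of another class the log2 ratios were 1.67 for *Ccl3* and 1.66 for *Csf1*.

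**Figure D5:**
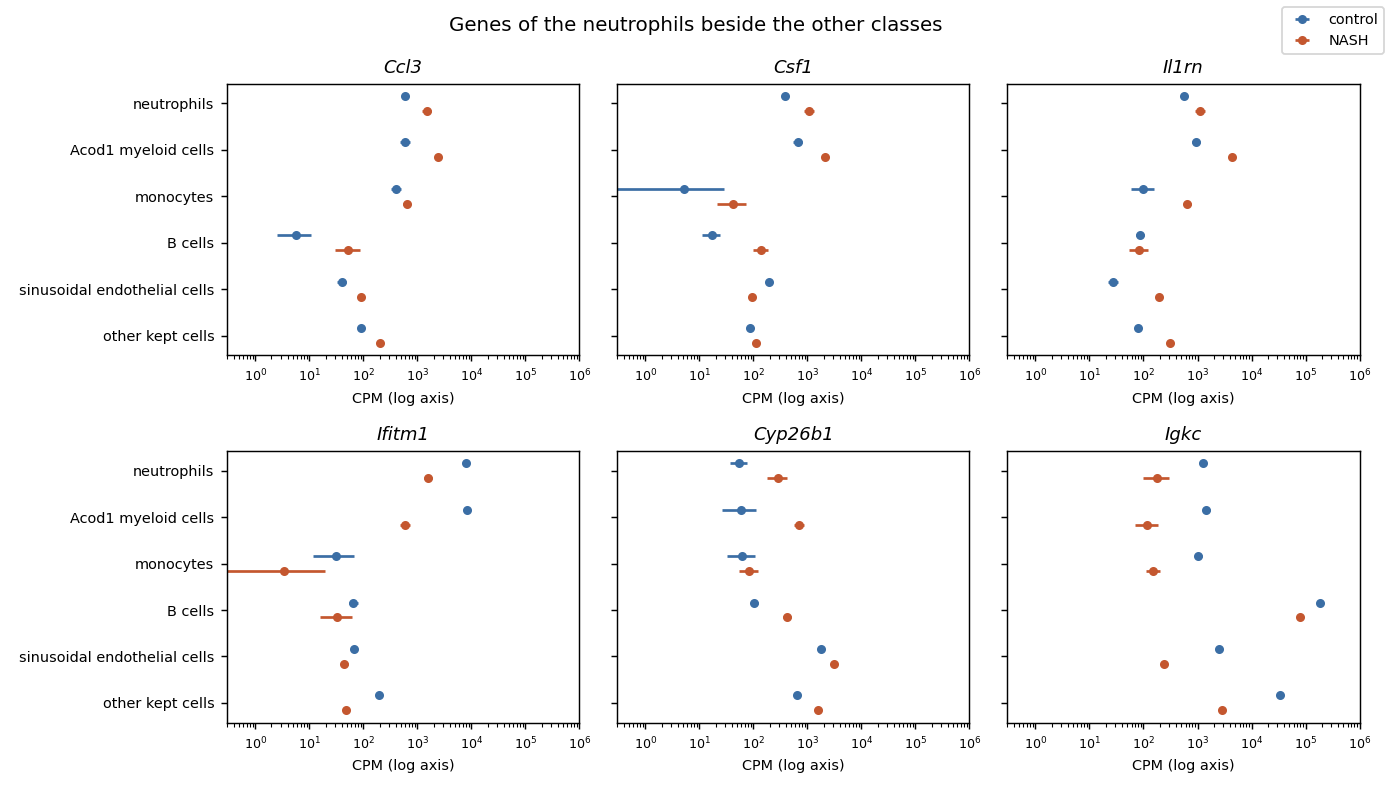
Level of 6 genes in CPM on a log axis, by cell class, in both libraries, with 95% Poisson intervals. *Ccl3*, *Csf1*, *Il1rn* and *Ifitm1* stand well above B cells in the neutrophils of both libraries, whereas *Cyp26b1* in NASH neutrophils (285 CPM) lies below NASH B cells (425 CPM) and *Igkc* is lower in NASH in all the classes shown.

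The immediate early and NF-kB genes were near the shares over all counted genes, which were 12.7% higher and 13.3% lower. Of 37 counted genes, 4 were at least 1.5 times higher and 5 lower, with a median of -0.01. *Egr1*, an immediate early transcription factor, went from 3944 to 1802 CPM (log2 ratio -1.13, -1.38 to -0.89), in 266 of 350 and 36 of 62 cells, and *Egr2* had a log2 ratio of -1.17 on 78 and 5 UMIs. *Nfkbiz* (-1.07, -1.58 to -0.62) and *Nfkbia* (-0.79, -1.07 to -0.54) were lower too, as was *Nfil3* (-0.68). The higher genes were *Bcl3* (0.75), *Nr4a1* (0.67), *Icam1* (0.65) and *Ppp1r15a* (0.65). *Fos* was within 1.5 times, with 21 UMIs in the median control cell and 16 in the median NASH cell, as was *Junb* (-0.01). In B cells *Egr1* stood at 488 and 528 CPM.

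Of 21 counted interferon-stimulated genes, 5 were at least 1.5 times higher and 2 lower, with a median of 0.18. The lower ones were *Ifitm1* and *Ifitm2*. *Isg15*, a ubiquitin-like protein, went from 98.8 to 368 CPM (log2 ratio 1.90, 1.21 to 2.56), in 37 of 350 and 14 of 62 cells, and the remaining higher genes were *Ifi27l2a* (1.19), *Parp14* (1.00), *Isg20* (0.84) and *Gbp2* (0.82). In other classes the log2 ratio of *Isg15* was 1.90 in monocytes, 1.34 in sinusoidal endothelial cells, 0.84 in *Acod1* cells and 0.03 in B cells. A single NASH neutrophil held 122 UMIs of the 45 listed genes other than the *Ifitm* family, in 1302 UMIs, and the next highest NASH cell held 33. It carried all 10 *Ifit3* UMIs, 7 of 10 *Ifit1* UMIs, 12 of 26 *Gbp2* UMIs and 7 of 31 *Isg15* UMIs of the NASH neutrophils. In the control library the highest cell held 102 such UMIs, in 4433 UMIs, and the next highest 55. The median cell held 7 such UMIs in both libraries, at median depths of 1455 UMIs in control and 1257.5 in NASH neutrophils. Without the highest cell of each library *Isg15* was at 1.61 (0.83 to 2.32), *Parp14* at 0.80 and *Gbp2* at -0.01.

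The sequence upstream of *Isg15* (chr4:156199424-156200818) is shown for its run of interferon-response letters. Capitals mark 3 overlapping matches to the interferon-stimulated response element (GAAA, any 2 bases, GAAA), searched on both strands, a pattern found in 1.59% of windows of the same length.
Isg15, chr4:156200819-156200968, minus strand: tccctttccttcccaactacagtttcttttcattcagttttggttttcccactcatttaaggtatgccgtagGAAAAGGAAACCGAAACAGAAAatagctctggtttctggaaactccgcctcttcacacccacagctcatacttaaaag

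The oxidase and antioxidant genes were near the background, with 2 of 18 at least 1.5 times higher and 1 lower and a median of 0.16. *Cybb* was the higher one discussed above and *Ncf1*, a cytosolic subunit of the oxidase, the other (0.63, 0.31 to 0.93). *Ncf4*, another cytosolic subunit, was the lower one (144 to 8 UMIs, -1.42). *Fth1*, the ferritin heavy chain, was among the most abundant transcripts at 16144 and 18060 CPM (0.16). Of 22 adhesion and surface molecules, 8 were higher and 1 lower, with a median of 0.21. *Cd177*, *Ly6g* and *Ly6c2* among these were also high in the granule-rich cells. Among the higher ones *Cd9*, a tetraspanin, had a log2 ratio of 1.09 (0.73 to 1.43) and was detected in 167 and 41 cells, while the log2 ratio of *Ly6c2* moved from 1.20 to 0.21 without the granule-rich cells. Of 16 gelatinase and secretory vesicle genes, 3 were higher and 1 lower (median 0.16). The lower one was the leukocyte immunoglobulin-like receptor *Lilr4b* (2497 to 1257 CPM, -0.98), and the lysosomal protease *Ctsb* was higher (0.82, 0.46 to 1.16).

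Among 22 transcription factors of granulocytes 3 were higher and 3 lower, with a median of 0.15. The higher ones were the clock gene *Per1* (58 to 21 UMIs, 1.22), *Klf5* (1.00, but 0.37 without the granule-rich cells) and *Ets1* (0.70). The lower ones were *Elf1* (-1.89), *Id2* (-1.23) and *Nfil3* (-0.68). *Fkbp5*, a chaperone of the glucocorticoid receptor, was among the 12 highest genes, at 59.7 and 249 CPM (2.07, 1.19 to 2.90), in 28 of 350 and 16 of 62 cells. Its level was 45.5 and 43.2 CPM in B cells and 115 and 147 CPM in sinusoidal endothelial cells. Of the 12 lipid handling genes, 5 were higher and 3 lower (median 0.28). *Lipa*, the lysosomal acid lipase, went from 142 to 415 CPM (1.56, 0.93 to 2.15), in 55 and 20 cells, with 109 and 110 CPM in B cells. Sinusoidal endothelial cells stood higher, at 700 and 771 CPM. The log2 ratio of *Lipa* was 1.53 in monocytes and 2.98 in *Acod1* cells, so its rise was not particular to neutrophils. *Apoe* (377 to 818 CPM) did not exceed its level in B cells (585 and 853 CPM). Its log2 ratio was 1.13 in neutrophils and 0.55 in B cells, and whether it is background was not tested. *Acsl1* (0.89) and *Dgat2* (0.95) rested on 18 and 16 NASH UMIs, and *Lpcat2* (-0.85) and *Cpt1a* (-1.05) were lower.

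The share of counted genes past 1.5 times varied among the remaining groups. Survival and apoptosis genes had 3 of 16 higher and 1 lower (median -0.10), with *Pmaip1*, a pro-apoptotic BCL2 family member, at 0.67 (0.24 to 1.07). Hypoxia and glycolysis genes had 1 of 20 higher and none lower (median -0.15), with *Gapdh* at -0.58. Of 9 eicosanoid synthesis genes, 2 were higher and 1 lower (median 0.17), and the abundant *Alox5ap*, which presents arachidonate to the 5-lipoxygenase, was at -0.26. Heat shock genes had 1 of 9 higher and none lower, and actin and motility genes 4 of 32 higher and 1 lower, with *Actb* at 0.01 and the membrane linker *Ezr* at 0.98 (0.61 to 1.32), at levels near those of B cells (707 and 969 CPM). Of 19 azurophil and precursor genes, 3 reached 50 UMIs, *Hmgn2*, *Igfbp4* and *Plac8*, and 2 of these were higher.

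Of 14 antigen presentation genes, none was 1.5 times higher and 3 were lower. For *H2-Ab1* and *H2-Eb1*, which were 2 of these 3, the lower level depended on a few cells. *H2-Ab1*, a chain of major histocompatibility complex class II, had 262 control UMIs, of which 96 came from 1 cell with endothelial markers and 110 from another cell that also held 74 of the 76 control UMIs of *Cxcl9* and no *Csf3r*. The log2 ratio of *H2-Ab1* was -1.61 over all neutrophils and 0.34 (-0.86 to 1.27) without the cells that carried markers of another class, and that of *H2-Eb1* moved from -1.65 to 0.68 (-0.83 to 1.83). *B2m*, the light chain of class I, was detected in 345 of 350 and 61 of 62 cells and had a log2 ratio of 0.55 (0.41 to 0.69).

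Several of the lowest and highest genes were as high or higher in other cells, absent from 1 library, or concentrated in 1 cell. Immunoglobulin transcripts were lower in NASH neutrophils, with *Igkc* in 296 of 350 control and 15 of 62 NASH cells (1266 to 178 CPM). *Igkc* was also lower in NASH sinusoidal endothelial cells (2503 to 240 CPM) and in NASH B cells (182017 to 79059 CPM). *Ighg2b* and *Ighg2c* had 71 and 57 control UMIs and none in NASH neutrophils. *Cyp26b1*, a retinoic acid hydroxylase, had the highest log2 ratio of all counted genes (2.40), but at 285 CPM in NASH neutrophils it stood below NASH B cells (425 CPM). *BC100530* had 61 control UMIs and no UMI in any cell of the whole NASH library, and no ratio is read from it. *Cstb* (1.64), an inhibitor of cathepsins, had 34 of its 64 NASH UMIs in 1 cell, and its log2 ratio was 3.12 in *Acod1* cells and 2.24 in monocytes. The *Acod1* cells differed between the libraries in their share of *Cxcr2* cells, as given above.

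Within the control neutrophils, thinned to 500 UMIs each, the ratio of variance to mean over cells was highest for *Ngp* (38.3), *Ltf* (12.2) and *Camp* (10.3), against a median of 1.12 over 928 genes. *Cxcl2* (8.20), *H2-Ab1* (7.67), *Cd74* (7.12), *Lyz2* (6.39), *Ccl4* (5.65), *Ccl3* (5.34), *Lcn2* (4.99), *Fth1* (3.94) and *Egr1* (3.80) followed. Without the granule-rich cells *Ngp* dropped to 0.98 and *Lcn2* to 2.34, while *Cxcl2* was at 8.14, *Ccl3* at 5.33 and *Egr1* at 3.80. The cells with no *Cxcl2* were 147 of 350 in control and 31 of 62 in NASH, and the highest cell held 92 and 38 UMIs. Over all NASH neutrophils the ratio was 42.3 for *Ngp*, 6.36 for *Cxcl2*, 3.23 for *Ccl3* and 6.01 for *Egr1*.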

How the data were processed

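Nonparenchymal liver cells of control and NASH mice, 3 pooled mice per diet, were captured in 1 library per diet on the BD Rhapsody system, per the study's methods. The authors deposited raw UMI counts per cell and gene without normalization (GRCm38 in the submitters' processing notes). The NASH table has no header, so its genes were named in the order of the control header. Over 25 genes, windows of 51 columns correlated between the libraries at a median of 0.976 (lowest 0.786), against at most 0.534 when shifted by 1 column. In all, 16383 genes were used.

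Cells with at least 500 UMIs and 200 genes were kept and doublets were not called. UMIs were summed per library and scaled to CPM. Log2 ratios used 0.5 UMI added to each sum and exact binomial 95% intervals, over genes with at least 50 UMIs. Intervals cover counting error only and are too narrow where few cells carry a gene. Shares of cells with a UMI were repeated with each cell thinned to 500 UMIs. With 1 library per diet there is no residual variation, so the diets are compared by size alone, with no p-value.

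Named genes were those of the rule and its markers, up to 6 per list with the largest absolute log2 ratio, the 12 highest and 12 lowest genes, the 15 leading genes, the 12 most variable genes, and precursor genes near 0. Genes outside this rule are named only to complete a count. The members, lists and rule were chosen with earlier results of these data known, and the limits for granule-rich cells and for 10 UMIs of another class after the counts were seen. Scripts were tested on simulated data. Python 3.11.15, numpy 2.4.6, scipy 1.17.1, pandas 2.3.3 and matplotlib 3.10.9 were used.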

Additional observations from a re-analysis of the deposited data

Results flagged for a closer look

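Some genes differed between the diets in opposite directions in neutrophils and in another myeloid class. These differences were not tested, since each diet was 1 library. *H2-Ab1* had a log2 ratio of NASH over control of 2.46 in *Acod1* cells and 1.66 in monocytes, against -1.61 in neutrophils. *H2-Eb1* had 2.41 in *Acod1* cells and 1.8 in monocytes, against -1.65 in neutrophils. Without the neutrophils that carried at least 10 UMIs of another class, *H2-Ab1* was at 0.34 and *H2-Eb1* at 0.68 in neutrophils. *Lcn2* had a log2 ratio of -3.32 in *Acod1* cells against 0.78 in neutrophils. *Mmp8* had -3.88 in *Acod1* cells and -2.34 in monocytes, against 0.83 in neutrophils. Without the granule-rich cells *Lcn2* was at -0.30 and *Mmp8* at 0.46 in neutrophils. Of the *Acod1* cells, 82 of 88 in control and 15 of 54 in NASH held at least 2 UMIs of *Cxcr2*.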

How the results depend on the processing

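The log2 ratio of the neutrophil shares stayed between -2.06 and -2.46 under each other definition tried. The control share was 10.3% with no limit on *Acod1*, 5.94% with no C1q UMI, 2.66% without cells with 2 or more UMIs of other classes, 9.33% among cells with 1000 UMIs and 9.57% after thinning to 500 UMIs. The NASH share was 1.08% with no C1q UMI and 0.566% without cells with other-class UMIs. Genes at least 1.5 times higher and lower numbered 98 and 110 without cells with other-class UMIs, 401 and 377 with *Csf3r* in place of *Cxcr2*, 558 and 557 from 20 UMIs, and 104 and 124 from 100 UMIs, as fewer or more genes were counted, and 156 were lower at a mean of 100 CPM. Signs turned as follows, and the cause was not tested except where stated. Without cells with other-class UMIs, a setting that leaves 1 control and 0 NASH granule-rich cells and so fixes the granule values, the specific granule median was -0.56, *Lcn2* -0.81, *Ltf* -2.83, *Ly6c2* -0.30, *Ly6g* -1.16, *Lyz2* -0.54, *Marcksl1* -0.17 and *Ngp* -6.16. With *Csf3r* the azurophil median was -3.35, *Acly* 0.17, *Casp1* -0.29, *Ccl9* 1.71, *Cxcl9* 5.96, *Eef1g* 0.77, *H2-Ab1* 1.95 and *H2-Eb1* 1.75. Of the settings chosen after seeing the data, leaving out the granule-rich cells gave -0.20 for the specific granule median, -0.30 for *Lcn2*, -0.08 for *Ly6g* and -0.20 for *Lyz2*, and leaving out cells with 10 UMIs of another class gave 0.34 for *H2-Ab1*. No paired analysis was possible because each diet was 1 library, and no replicate could be left out.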
